A study of Mus musculus with 267 samples.

Results

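The Fbp1 and Fbp2 genes lie head to tail on the minus strand of mouse chromosome 13 (mm10 build, GENCODE vM21 annotation), with Fbp2 at chr13:62836877-62858422, Fbp1 at chr13:62864753-62888282 and 29.9 kb between their starts. The locus was chosen by measured values, the gain of the histone mark H3K27ac at a region upstream of Fbp1 after interleukin-4 (IL-4) in SPRET macrophages. All SPRET values of that contrast, those of RNA polymerase II (Pol II) and of the factors included, are therefore described without a test. Its members were the regions and peaks with a centre within 50 kb of the start of either gene. They came to 30 of 423610 regions in 9 tables of ChIP-seq tags (a region seen in several tables counts in each) and to 106 of 1958714 peaks in 54 lists of transcription factor peaks. The only other annotated genes in this window were Gm7049, a processed pseudogene, and Gm48795, a lincRNA.

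Bone marrow-derived macrophages (BMDMs), grown for 7 days in M-CSF, came from female mice, 8 to 12 weeks old, of 5 inbred strains. C57BL/6J (C57), BALB/cJ (BALB) and NOD/ShiLtJ (NOD) are laboratory strains, while PWK/PhJ (PWK) and, from another mouse species, SPRET/EiJ (SPRET) were derived from wild mice. They were left untreated (basal) or given 20 ng/mL IL-4 for 24 h, and in C57 also for 1 or 6 h. Each group had 2 libraries per histone mark and 1 to 4 for Pol II, called biological replicates by the labels. Further tables compared Egr2 fl/fl BMDMs with LyzM-Cre Egr2 fl/fl BMDMs, in which Cre is driven by a myeloid promoter. None of the 4677 regions in either of those tables lay in the window, the nearest being 204.9 kb from a member's start, so that the effect of Egr2 deletion on this locus was not measured here.

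Fbp1 and Fbp2 encode fructose bisphosphatases, enzymes of gluconeogenesis that remove a phosphate from fructose bisphosphate and so oppose phosphofructokinase, the committed step of glycolysis. Fbp1 is best known from liver and kidney, and Fbp2 from muscle. In macrophages IL-4 activates STAT6, a factor that enters the nucleus after phosphorylation, while EGR2 and PPARg are factors of the later IL-4 response. PU.1 and CEBPb are factors of the macrophage lineage that bind many enhancers before any stimulus. H3K27ac marks active enhancers and promoters, H3K4me2 marks both whether active or poised, and H3K4me3 marks mainly promoters. RNA was not analysed here, so that the values below are of chromatin and not of expression of either gene.

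Over the 155 libraries of the tables the totals ran from 4691644 to 29050468 tags, with a median of 12936233. The unit below is the normalized tag, a tag in the 1000 bp around a region's centre scaled to a library total of 10000000, so that 1 normalized tag stood for 0.469 to 2.91 reads. Macrophage identity was checked at 6 marker genes, all of which had a promoter region in C57, BALB, NOD and PWK and 5 of which had one in SPRET, where Csf1r had none. Their summed H3K27ac lay between 751.1 and 2838 normalized tags per library. The lowest single means were those of Fcgr1, with 16.45 normalized tags at rest and 10.87 after IL-4 in SPRET, and 24.5 in treated PWK. Of 10 markers of T cells, B cells, neutrophils, dendritic cells and fibroblasts, 1 to 4 per strain had a promoter region, both T cell markers had none in any strain, and all means were at most 7.005 normalized tags except at Zbtb46, a dendritic cell transcription factor. Zbtb46 had 1.175 normalized tags in basal and 21.38 in IL-4-treated PWK BMDMs, and 13.09 and 45.98 in SPRET.

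Positions are given in kb from the Fbp1 start, negative upstream of it and positive in the direction of transcription. SPRET had 7 regions in the window, at -38.3, -13.0, -9.8, -7.2, -5.3, +7.9 and +31.9 kb. The first 5 were intergenic, the +7.9 kb region lay in intron 1 of Fbp1 and the +31.9 kb region in intron 1 of Fbp2, 2.1 kb past the Fbp2 start. The intron 1 region of Fbp1 was the only site found in the tables of all 5 strains. C57 had a second, overlapping region there at +8.2 kb, which shares tags with it, and regions at the Fbp1 start, at -39.3 and at -41.0 kb. No table had a region within 1 kb of the Fbp2 start. At the edge of the window, the outermost SPRET region, 38.3 kb from the Fbp1 start, had 0 to 6.17 normalized tags of H3K27ac over its 4 libraries, and the nearest region outside the window, 68.7 kb from a start, had 11.97 to 25.57.

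The mm10 reference sequence of the central 300 bases is shown for 4 SPRET regions, the intron 1 region as the site shared by all strains, the -5.3 and -7.2 kb regions as those with the highest H3K27ac after IL-4, and the -13.0 kb region as one with SPRET peaks only. They are chr13:62880279-62880578 (+7.9 kb), chr13:62893467-62893766 (-5.3 kb), chr13:62895337-62895636 (-7.2 kb) and chr13:62901178-62901477 (-13.0 kb), all on the plus strand. The letters are those of the reference genome, and SPRET alleles were not analysed here. Capitals mark matches to the motifs searched, on either strand.
Intron 1 of Fbp1: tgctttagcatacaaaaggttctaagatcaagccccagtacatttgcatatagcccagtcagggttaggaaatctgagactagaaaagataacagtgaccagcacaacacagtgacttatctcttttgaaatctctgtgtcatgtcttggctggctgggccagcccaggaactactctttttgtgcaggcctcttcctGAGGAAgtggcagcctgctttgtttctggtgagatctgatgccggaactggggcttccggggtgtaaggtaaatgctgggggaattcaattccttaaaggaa
Region at -5.3 kb: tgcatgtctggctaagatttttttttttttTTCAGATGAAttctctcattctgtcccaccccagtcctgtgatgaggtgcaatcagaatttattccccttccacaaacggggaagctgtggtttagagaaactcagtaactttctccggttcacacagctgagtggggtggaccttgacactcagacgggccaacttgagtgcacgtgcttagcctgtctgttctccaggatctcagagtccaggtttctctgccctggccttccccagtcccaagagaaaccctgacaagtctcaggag
Region at -7.2 kb: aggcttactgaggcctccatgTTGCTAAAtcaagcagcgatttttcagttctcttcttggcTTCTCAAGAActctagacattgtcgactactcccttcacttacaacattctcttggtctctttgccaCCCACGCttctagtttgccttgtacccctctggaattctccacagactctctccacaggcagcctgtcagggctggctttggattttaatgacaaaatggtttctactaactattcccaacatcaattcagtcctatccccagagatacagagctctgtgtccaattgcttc
Region at -13.0 kb: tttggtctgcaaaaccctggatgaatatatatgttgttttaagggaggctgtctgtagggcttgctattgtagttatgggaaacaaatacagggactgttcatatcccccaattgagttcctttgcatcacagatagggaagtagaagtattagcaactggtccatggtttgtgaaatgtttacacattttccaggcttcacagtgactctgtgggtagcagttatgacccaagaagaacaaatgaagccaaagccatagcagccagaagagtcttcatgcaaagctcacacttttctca

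The motifs were a STAT6 type (TTC and GAA with 4 bases between them), an EGR type (GCGTGGG), a PU.1 type (GAGGAA), a CEBP type (TTGC and AA with 2 bases between them), an AP-1 type (TGANTCA) and a PPAR-RXR type (a direct repeat of AGGTCA with 1 base between), which can overlap each other. The -7.2 kb window held 3 matches, in order along the plus strand a CEBP type, a STAT6 type and, read on the minus strand, an EGR type. Among the 54742 SPRET windows of this length, 15.5% held the CEBP type, 7.8% the STAT6 type and 3.79% the EGR type. The -5.3 kb window held a STAT6 type match, and the intron 1 window a PU.1 type match, which 43.9% of windows hold. The -13.0 kb window held none of the 6 motifs, which says only that these letters are not in these 300 bases of the reference. AP-1 and PPAR-RXR matches, held by 17.6% and 0.0402% of SPRET windows, were in none of the 4. The same search of all C57 windows gave close shares, for example 8.77% with the STAT6 type. A match is a string of letters and not a measured site.

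The 250 bases before the Fbp1 start, chr13:62888283-62888532 on the minus strand (RefSeq, GRCm38.p6), are shown because factor peaks were found there in SPRET alone, as described below.
Fbp1 promoter: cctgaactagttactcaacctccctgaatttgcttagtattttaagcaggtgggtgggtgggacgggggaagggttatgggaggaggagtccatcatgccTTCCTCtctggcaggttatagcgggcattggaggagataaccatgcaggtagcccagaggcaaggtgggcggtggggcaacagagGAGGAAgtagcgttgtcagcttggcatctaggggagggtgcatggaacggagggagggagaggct
Both matches in it are of the PU.1 type, held by 23.3% of 32851 promoter stretches of this length. The STAT6 type was in 5.85% of those stretches and the EGR type in 4.3%, and neither was in this one.

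In SPRET BMDMs, 4 intergenic regions upstream of Fbp1 and the intron 1 region carried little H3K27ac at rest and much after 24 h of IL-4. At -7.2 kb the normalized H3K27ac tags were 0.85 and 0 in the basal libraries, and 229 and 116 after IL-4. At -5.3 kb they were 5.98 and 1.32 at rest and 220 and 111 after IL-4. At -13.0 kb the basal values were 2.56 and 1.98 and the IL-4 values 163 and 72.2. The -9.8 kb region had 0 and 1.32 tags at rest and 108 and 49.5 after IL-4. The intron 1 region of Fbp1 started from a higher level, 9.4 and 9.88 tags, and reached 146 and 101. In all 5 regions both treated libraries lay above both basal libraries, as in 18.2% of all SPRET regions, and replicate 1 was the higher of the treated pair.

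Near Fbp2 the H3K27ac values were smaller. The region in its intron 1, at +31.9 kb, had 0 and 0.66 normalized tags at rest and 20.3 and 9.69 after IL-4, and the -38.3 kb region had 0 and 1.32 against 6.17 and 5.38. By the rule of a 2.5-fold rise of the group mean plus 1 with at least 16 normalized tags in a group, 5 of 7 SPRET members were higher, and 2.64% of all SPRET regions were. As these values chose the locus, nothing is read from that count.

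As ratios of reads summed over libraries, with 95% intervals that cover counting error only, the SPRET H3K27ac gain was 480-fold (85.5 to 1.9e+04, from 1 basal read) at -7.2 kb. The ratio was 51.1 (26.6 to 113) at -5.3 kb and 54.7 (24.8 to 151) at -13.0 kb. At -9.8 kb it was 110 (30 to 917, from 2 basal reads), and in intron 1 of Fbp1 13 (8.69 to 20.3). In the intron of Fbp2 the ratio was 41.7 (6.97 to 1.7e+03, from 1 basal read), which is wide. The spread between libraries is not in these intervals, here or below. As these values chose the locus, the intervals are no test of the gain, and the regions were not tested against each other.

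Pol II was higher after IL-4 in the same SPRET regions. At -7.2 kb the basal libraries had 0.97, 0 and 0 normalized Pol II tags, and the treated ones 49.9, 22.6 and 24. The -5.3 kb region had 0, 1.52 and 0 at rest against 39.7, 19.1 and 23.1, and intron 1 of Fbp1 had 4.84, 0 and 0 against 29.6, 23.3 and 24. In the intron of Fbp2 the values were 2.9, 0.76 and 1.54 at rest and 12.7, 9.9 and 6.46 after IL-4. The remaining upstream regions reached 12.7 to 39.7 after IL-4, from at most 2.9, and only the -38.3 kb region stayed at 0 to 4.23. The ratio of summed reads, with an interval of counting error only, was 137 (24 to 5.44e+03, from 1 basal read) at -7.2 kb. It was 21.9 (9.07 to 69.1) in intron 1 of Fbp1 and 6 (2.63 to 16) in intron 1 of Fbp2. The fold rule, with 8 tags for Pol II, was met by 6 of 7 members and by 1.54% of all SPRET regions.

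The methylation marks differed less between conditions. H3K4me2 was already present at rest in both introns, with 12.1 and 27.7 normalized tags in that of Fbp1 and 24.3 and 21 in that of Fbp2, and after IL-4 it was 36 and 30.1 in the first and 25.9 and 27.3 in the second. In the intron of Fbp1 both treated libraries lay above both basal ones for H3K4me2, as in 5.2% of all SPRET regions. At -7.2 kb H3K4me2 was 2.43 and 6.72 at rest and 26.8 and 12.2 after IL-4, a ratio of 4.32 (2.19 to 9.3, counting error only). At -13.0 kb the ratio was 2.64 (1.61 to 4.45) and at -9.8 kb 4.95 (2.26 to 12.3). H3K4me3 was highest in the intron of Fbp2, with 5.94 and 8.5 normalized tags at rest and 25.3 and 15.5 after IL-4, a ratio of 2.87 (1.66 to 5.16). In intron 1 of Fbp1 it was 3.4 and 0.71 against 10.4 and 6.78, and in the other 5 regions at most 4.85.

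**Figure D1:**
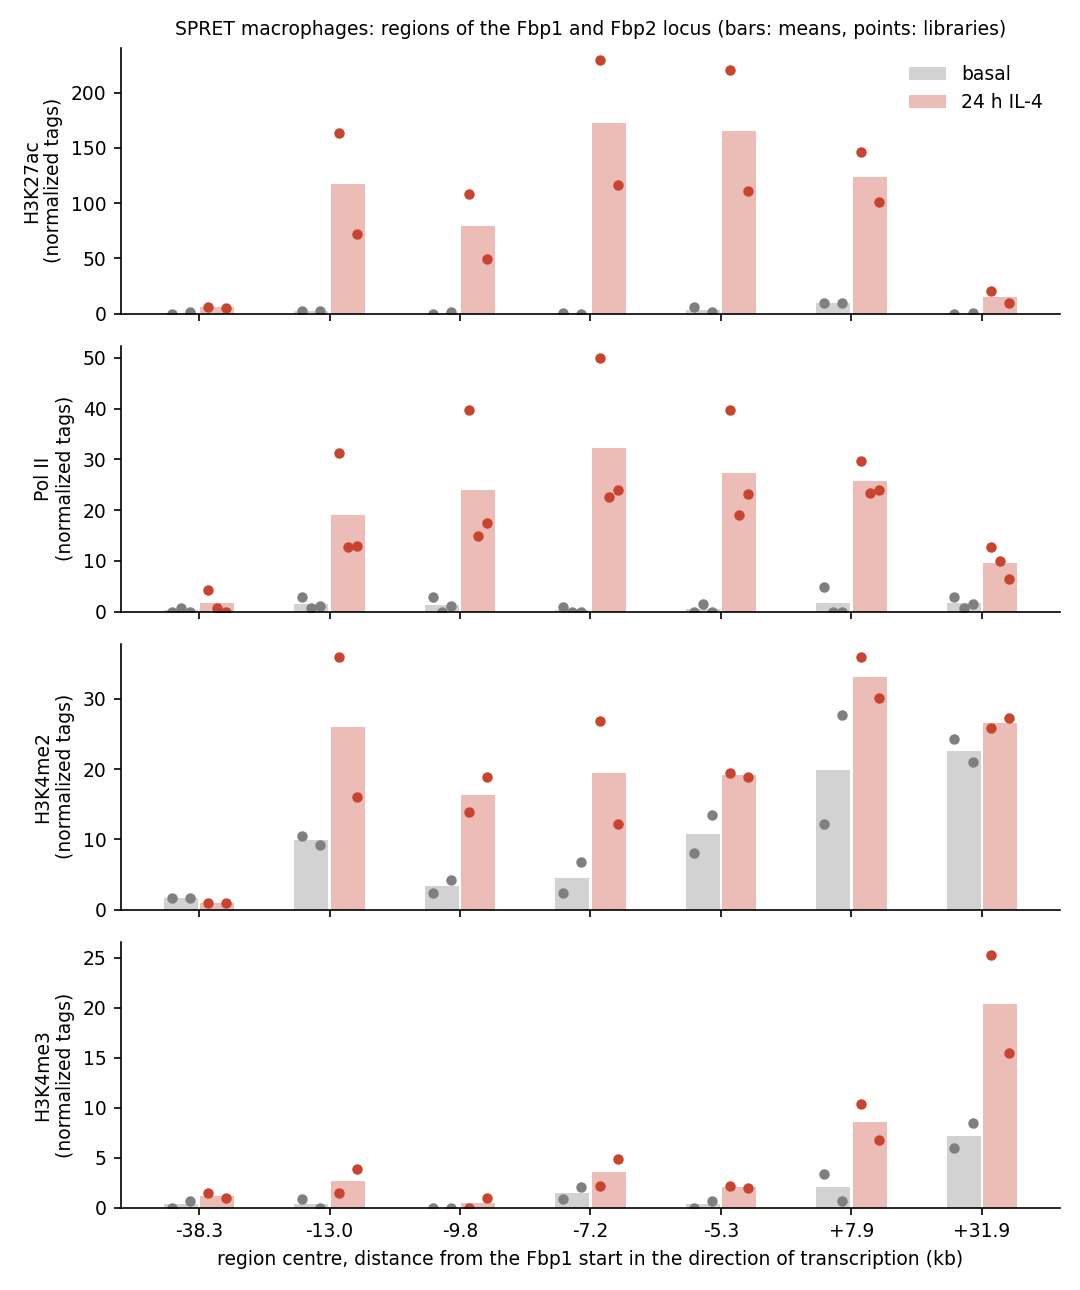
Normalized tags of H3K27ac, Pol II, H3K4me2 and H3K4me3 (vertical axes, each panel on its own scale) in the 7 SPRET regions, placed by their distance from the Fbp1 start in kb; bars are group means and points are libraries, grey for basal and red for 24 h of IL-4. H3K27ac and Pol II are low at rest and high after IL-4 from -13.0 to +7.9 kb, with the highest basal H3K27ac, 9.4 and 9.88, at +7.9 kb. The 2 introns have H3K4me2 in both conditions.

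The treated SPRET H3K27ac libraries were not equal elsewhere either. Over 34397 regions with a mean of at least 16 normalized tags, replicate 1 had a median of 1.21 times the value of replicate 2, and 51.84% of its tags against 39.57% fell in the regions of the table. The summed dendritic cell marker signal was 12.51 to 13.68 normalized tags in the basal SPRET libraries and 16.15 to 75.82 in the treated ones, all of it at Zbtb46, while the summed macrophage marker signal was 1344 to 1390 and 903.5 to 1286. The part of these differences in the SPRET values was not tested. In the other strains the macrophage sum was lower after IL-4 as well. It was 2699 to 2838 against 1197 to 1228 in C57 and 1894 to 2233 against 850.3 to 1505 in BALB. NOD had 1992 to 2679 against 1352 to 1505, and PWK 1346 to 1505 against 751.1 to 1338. Mean H3K27ac at Zbtb46 was higher after IL-4 in every strain.

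In the other 4 strains the question was whether the same region responded to IL-4 over 24 h, and no member did by the test across all regions. Intron 1 of Fbp1 carried H3K27ac at rest in each of them. In C57 it had 15.6 and 72.7 normalized tags at rest and 25.5 and 70.2 after IL-4. BALB had 47 and 70.3 at rest and 66.3 and 57.2 after IL-4. NOD had 49 and 144 at rest and 32.6 and 94 after IL-4, and PWK 22.3 and 31.3 at rest and 20.2 and 35.3 after IL-4. Basal and treated libraries overlapped in every one of these strains. The test did not pair libraries by number, although same-numbered libraries deviated together, with correlations over all regions of 0.435 to 0.492. With a block for the replicate no member was called either. The lowest of these 8 basal libraries, at 15.6, was above both basal SPRET libraries, at 9.4 and 9.88, though the strain tables were made separately and were not tested against each other.

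The log2 difference of H3K27ac in this intron was 0.31 (SE 0.81) in C57, 0.10 (SE 0.66) in BALB, -0.59 (SE 0.69) in NOD and 0.02 (SE 0.55) in PWK, with adjusted p of 0.839, 0.971, 0.747 and 0.996 (limma on log2 of normalized tags plus 1, Benjamini-Hochberg over all regions of the table). Of the 13 member regions in the 4 strains limma called 0, with a smallest adjusted p of 0.433, 0 at an unadjusted p under 0.05, and 0 by edgeR on recovered reads. Of all regions limma called 0% in C57 (14904 of 67742 at an unadjusted p under 0.05 and 274 by edgeR), 2.26% in BALB, 0.0566% in NOD and 0.535% in PWK. The fold rule was met upward by none of the 13, beside 3.46%, 2.84%, 3.24% and 3.1% of all C57, BALB, NOD and PWK regions. With 2 libraries a group, changes well above these standard errors could also go uncalled, so that a missing call is not a missing change. Scaled to the library total, the median log2 difference over all regions was itself -0.28 in C57, -0.30 in BALB, -0.20 in NOD and -0.18 in PWK, and 0.01 to 0.03 after median-ratio scaling, under which no member was called either.

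The upstream regions that gained H3K27ac in SPRET were largely not listed in the other strains. The regions were each strain's own peaks of open chromatin (ATAC-seq), from basal and treated BMDMs together. A SPRET region could thus enter through the IL-4 condition alone, and a stretch not listed in another strain was not counted there rather than measured as low. Their tables had no region from -38 to 0 kb other than the one at the Fbp1 start in C57, where H3K27ac was 1.36 and 1.43 at rest and 0.85 and 5.91 after IL-4. The C57 time course table did have regions at -5.3 and -9.8 kb. Over its 8 libraries H3K27ac was at most 3.65 normalized tags at -5.3 kb and at most 4.64 at -9.8 kb, below the lowest treated SPRET values of 111 and 49.5. At rest and after 24 h of IL-4 the intron of Fbp2 had at most 2.86 normalized tags of H3K27ac in C57, NOD and PWK, and 8.99 to 46.6 of H3K4me2. At 1 and 6 h in C57 its H3K27ac was at most 3.85.

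Pol II in intron 1 of Fbp1 lay higher after IL-4 without overlap in PWK and BALB, as it did in 8.87% of all PWK and 14.5% of all BALB regions, and neither difference passed the test. In PWK the basal libraries had 4.23, 6.29 and 4.55 normalized tags and the treated ones 12.2, 10.8 and 11.1, a log2 difference of 1.05 (SE 0.43) with an adjusted p of 0.313 by limma. In BALB they had 16, 17.2 and 16.4 at rest against 21.3 and 23.8, a log2 difference of 0.43 with an adjusted p of 0.92 by limma. The median log2 difference of Pol II over all regions was itself 0.32 in BALB, and -0.03 in C57, -0.02 in NOD and -0.03 in PWK. C57 had 11.9, 12, 16.6 and 18.2 at rest against 17.3, 4.55 and 18, and NOD 13.6 and 17.1 against 14.1 and 27, both overlapping, with adjusted p of 0.972 and 0.954 by limma. The fold rule was met by 1 of the 13 members, the -41.0 kb region in BALB, with 1.92, 2.97 and 2.19 tags at rest and 12.8 and 3.97 after IL-4. The treated values there are 11 reads in all, and the 12.8 is from the library with the lowest total, 4691644 tags. Of all regions 1.57% in C57, 5.91% in BALB, 2.35% in NOD and 2.66% in PWK met it upward.

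Over the 13 members limma called 0 for Pol II, with 1 at an unadjusted p under 0.05, the PWK intron, and 0 by edgeR. Of all regions it called 0.319% in C57, 0.707% in BALB, 0% in NOD (5271 of 68932 at an unadjusted p under 0.05 and 63 by edgeR) and 1.72% in PWK. For H3K4me2 it called 0 of 13 members, 0 at an unadjusted p under 0.05 and 0 by edgeR, beside 0.236% of C57, 0.0111% of BALB, 0.189% of NOD and 0.314% of PWK regions. For H3K4me3 it called 0 of 13, with 1 at an unadjusted p under 0.05 and 0 by edgeR, beside 0% in C57 (13232 and 185 by edgeR), 0% in BALB (3408 and 6 by edgeR), 0.0203% in NOD and 0.0349% in PWK. In intron 1 of Fbp1 H3K4me2 lay between 18.2 and 48 normalized tags in these strains, a range that holds the treated SPRET values. In C57 H3K4me2 was 31 and 29.6 at rest and 25.6 and 22 after IL-4, below without overlap, as in 61% of all C57 regions. The log2 difference was -0.34 beside a median of -0.69 over all C57 regions, and it turned to 0.33 with median-ratio scaling. H3K4me3 there was 2.03 to 7.72 at rest and 4.15 to 12.5 after IL-4.

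**Figure D2:**
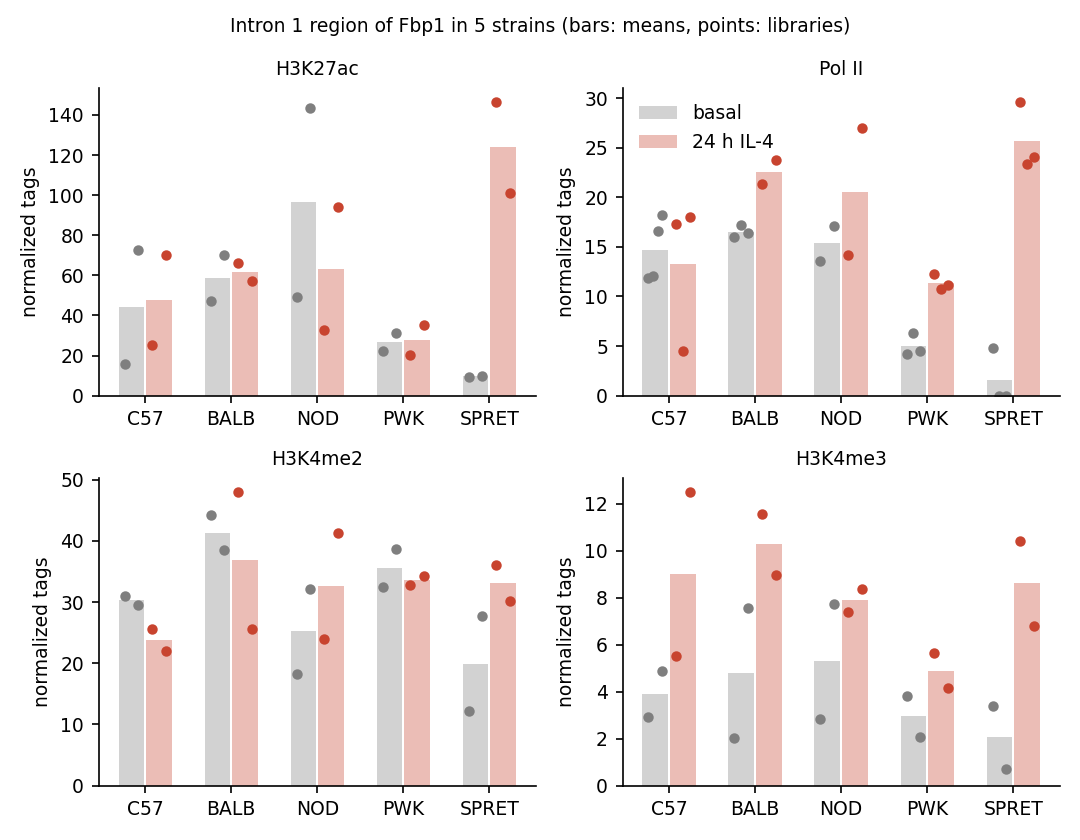
Normalized tags (vertical axes) of 4 targets in the intron 1 region of Fbp1 in C57, BALB, NOD, PWK and SPRET; bars are group means and points are libraries, grey for basal and red for 24 h of IL-4. For H3K27ac the basal and treated points overlap in the first 4 strains, and in SPRET they lie at 9.4 and 9.88 against 146 and 101.

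The C57 time course asked how early the locus responded. In intron 1 of Fbp1, at +7.9 kb, H3K27ac was 15.6 and 72.7 normalized tags at rest, 19.3 and 13.4 at 1 h, 37 and 30.4 at 6 h, and 25.5 and 70.2 at 24 h. The spread between the basal libraries thus held the values of the 6 h and 24 h libraries, and all but 1 of the 1 h values. The log2 differences from rest were -1.03 at 1 h, -0.02 at 6 h and 0.31 at 24 h, with adjusted p of 0.304, 0.994 and 0.821 by limma, beside medians over all regions of -0.63, -0.14 and -0.22. In the overlapping region at +8.2 kb H3K27ac was 21 and 94.1 at rest and 17 and 13.8 at 1 h, a log2 difference of -1.49 (SE 0.68) with an adjusted p of 0.142 by limma. Without basal replicate 1 this difference was -2.54 with an adjusted p of 0.048 by limma, and with a block for the replicate the adjusted p was 0.0352 by limma. Both intron regions met the fold rule downward at 1 h, as did 20.6% of all regions.

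Upstream of Fbp1 at -5.3 and -9.8 kb, and at its start, the C57 H3K27ac values were near the floor at all times. At -9.8 kb H3K27ac was 1.36 and 0 at rest, 4.64 and 3.79 at 1 h, 3.08 and 1.22 at 6 h, and 2.55 and 4.59 at 24 h. The 1 h difference was 1.76 on the log2 scale with an adjusted p of 0.0928 by limma, and 0.0479 by limma with the replicate block. At the Fbp1 start H3K27ac was 0 to 5.91, and at -39.3 kb 9.13 to 19, over the 8 libraries. Over the 9 regions and 4 contrasts limma called 0 of 36 differences, with 4 at an unadjusted p under 0.05 and 0 by edgeR. Of all regions limma called 9.72% at 1 h, 5.13% at 6 h and 1.45% at 24 h against rest, and 0.0731% at 24 h against 6 h.

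Pol II in the C57 intron at +7.9 kb was 11.9, 12, 17.2 and 18.2 normalized tags at rest, 11.2 in the only library at 1 h, 18.1 and 10.2 at 6 h, and 17.3, 4.55 and 18 at 24 h, with groups that overlap at 6 and 24 h. Limma called 0 of 27 Pol II differences, 0 at an unadjusted p under 0.05 and 0 by edgeR, beside 0.0911% of all regions at 1 h, 0.566% at 6 h and 0.677% at 24 h. The 1 h contrast assumes that the lone library varied like the other groups.

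EGR2 itself was counted at 1 member site, at +8.2 kb in intron 1 of Fbp1. Its normalized tags were 30 and 21.5 at rest, 20.8 and 21.2 at 1 h, 34.9 and 39.2 at 6 h, and 53.9 and 22.1 at 24 h. Both 1 h libraries lay below the basal ones, as they did at 25.9% of all EGR2 sites, and both 6 h libraries above them, as at 25% of sites. The 24 h libraries overlapped the basal ones. The log2 differences were -0.26, 0.53 and 0.43, with a smallest adjusted p of 0.841, and limma called 0 of 3, with 0 at an unadjusted p under 0.05 and 0 by edgeR. Of all 30675 EGR2 sites it called 0% at 1 h, 0% at 6 h and 0% at 24 h, with 1085, 1169 and 1038 at an unadjusted p under 0.05 and 0, 2 and 0 by edgeR. The median over all sites was -0.59 at 1 h, 0.17 at 6 h and 0.66 at 24 h, and rescaling libraries by the median ratio turned the 1 h difference to 0.32 and the 24 h difference to -0.21.

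**Figure D3:**
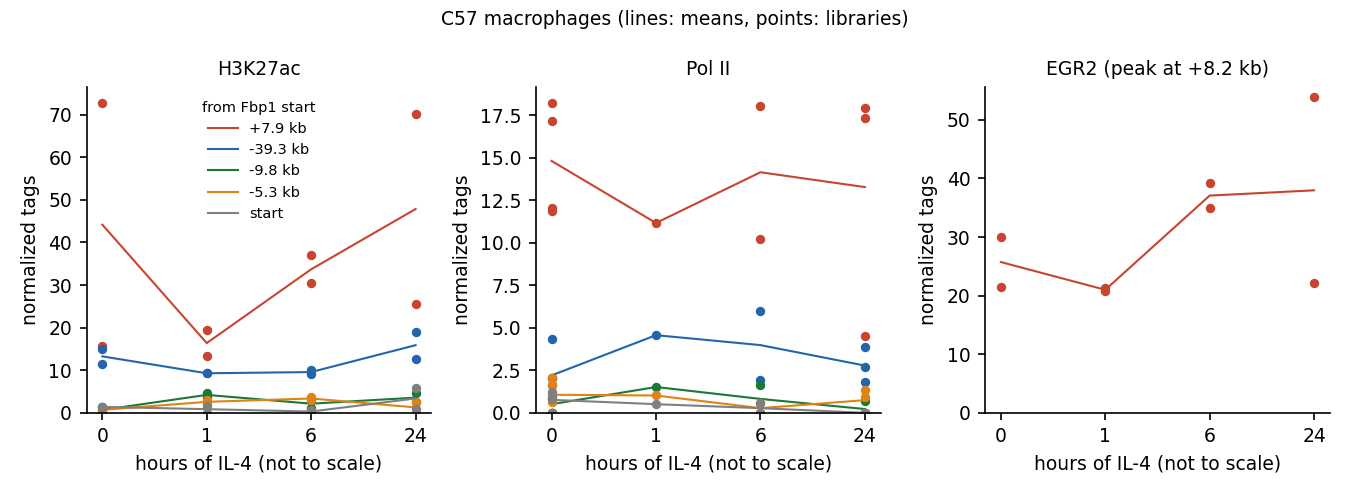
Normalized tags (vertical axes) of H3K27ac, Pol II and EGR2 in C57 BMDMs at 0, 1, 6 and 24 h of IL-4 (horizontal axis, not to scale), coloured by distance from the Fbp1 start; lines join means and points are libraries. Of the regions drawn, which leave out the overlapping one at +8.2 kb, that at +7.9 kb is the highest for H3K27ac and Pol II, and the upstream regions stay at or under 4.64 H3K27ac tags at -5.3 and -9.8 kb.

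Factor peaks were called per group, 1 list for each factor, strain and condition, so that they have no replicate spread and are given as calls. The 106 member peaks came from 41 of the 54 lists and fell into 20 sites by overlap, 6 of them with SPRET peaks only and 9 without any. SPRET after IL-4 had 24 peaks in its 5 lists, the largest number, and 16 of these lay 4 to 15 kb upstream of Fbp1, a stretch chosen after its values were seen. At rest SPRET had 6 peaks, with 4 in that stretch. The other strains had 5 to 9 peaks at rest and 7 to 14 after 24 h of IL-4, with 0 to 3 in that stretch. The lists themselves differed in length, from 6201 to 101317 peaks. In 15 of them every peak was 200 bp wide. The median EGR2 count was 91 in treated C57 and 21.7 in treated SPRET, so that counts are not on 1 scale across lists.

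PU.1 gave 42 of the member peaks and CEBPb 21, both with peaks here in all 10 of their lists. PPARg gave 15, absent from 2 of 10 lists, EGR2 gave 14, absent from 6 of 12, and STAT6 gave 14, absent from 5 of 12. The site at -7.1 kb, inside the -7.2 kb region, had STAT6, CEBPb, PU.1 and EGR2 peaks in treated SPRET BMDMs. The STAT6 peak had a deposited count of 355 and ranked 26 of 35742 in its list. The CEBPb peak had 214 and ranked 789 of 29217, while in basal SPRET it had 63 and ranked 13690 of 31109. The EGR2 peak had 106.9 and ranked 3010 of 39458, and the PU.1 peak 173 and 9085 of 80580. Other strains had 2 peaks there, both after IL-4, STAT6 in PWK with a count of 56 and rank 9971 of 38679, and EGR2 in BALB with 13.2 and rank 29706 of 37104.

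The sites at -5.3 and -13.0 kb had peaks in SPRET only. At each, PU.1 was called at rest and PU.1, CEBPb, STAT6 and EGR2 after IL-4. The STAT6 peaks ranked 2187 and 3538 of 35742, with counts of 108 and 89, and the CEBPb peaks 8489 and 3852 of 29217, with 85 and 131. The PU.1 count was 39 at rest and 64 after IL-4 at -5.3 kb, and 37 and 106 at -13.0 kb. A site at -9.8 kb differed from these in having PU.1 peaks in all 5 strains, with counts of 29 to 54 in C57, BALB, NOD, PWK and basal SPRET and of 133 in treated SPRET, where STAT6 and PPARg peaks were also called. At the Fbp1 start treated SPRET was the only group with peaks, a PU.1 peak with a count of 42 and an EGR2 peak with 24.5.

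Intron 1 of Fbp1 held the most widely shared sites. At +7.8 kb 22 lists had a peak, with PU.1 in all 10 of its lists at counts from 135 in basal SPRET to 365 in treated NOD. The other lists were CEBPb in C57, BALB, NOD and PWK and STAT6 in C57, NOD, PWK and SPRET. At +8.3 kb 15 lists had a peak, mostly EGR2 and PPARg, among them EGR2 in treated SPRET at a count of 44.4. C57 EGR2 was listed there at 6 and 24 h only, although the tag counts above were 20.8 to 30 at rest and 1 h, so that a missing peak is not a missing signal.

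Near Fbp2, the site with the most peaks had them mainly in the strains other than SPRET. This site at +28.9 kb, 0.9 kb before the Fbp2 start, had peaks in 18 lists. CEBPb and PU.1 were called in C57, BALB, NOD and PWK in both conditions and STAT6 in treated C57, while in SPRET the only peak was PU.1 at rest, with a count of 33 and rank 83520 of 101317. The PU.1 counts in the other strains were 83 to 163 and the CEBPb counts 46 to 122. No table had a region at this site, so that its histone marks are not given. A site at +32.6 kb, 2.7 kb past the Fbp2 start, had a single peak, of EGR2 in treated SPRET, with a count of 19.9 and rank 21215 of 39458. Sites with PPARg peaks near Fbp2 had none in SPRET. They were at +25.5 kb in treated BALB, +31.9 kb in treated C57 and PWK, and +33.4 kb in treated PWK. The PWK counts were 78.6 (rank 4252 of 46415) at +31.9 kb and 63.2 (rank 7422) at +33.4 kb.

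**Figure D4:**
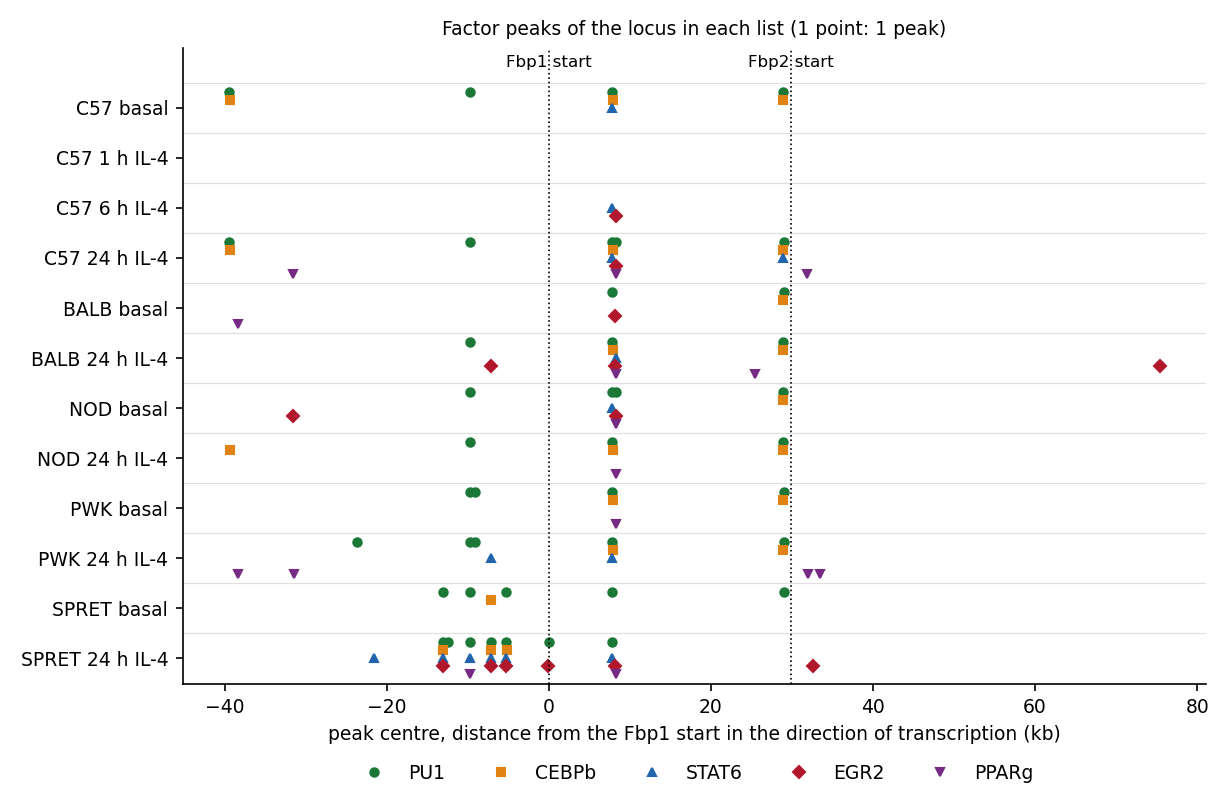
Peaks of PU.1 (written PU1), CEBPb, STAT6, EGR2 and PPARg by distance from the Fbp1 start in kb (horizontal axis) for each strain and condition (vertical axis); each point is 1 peak and dotted lines mark the 2 gene starts. Treated SPRET BMDMs have 16 peaks 4 to 15 kb upstream of Fbp1, where the other strains have 0 to 3 a condition, and the points at +28.9 kb are in the other 4 strains and in basal SPRET.

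Other genes of gluconeogenesis and of the fructose phosphate step were taken from a list of 20, of which 15 had a promoter region in C57, BALB, PWK and SPRET and 16 in NOD. Limma called 0 of them for H3K27ac and 0 for Pol II in each of the 4 tested strains. At an unadjusted p under 0.05 there were 2 in C57 and 1 in PWK for H3K27ac and 1 in PWK for Pol II, and edgeR called 0. In SPRET none met the fold rule for either target. Pfkfb4, an enzyme that sets the level of an activator of phosphofructokinase, had mean SPRET H3K27ac of 150.6 normalized tags at rest and 260.3 after IL-4, and Pfkp, the platelet-type phosphofructokinase that runs the step opposite to Fbp1, 59.4 and 115.7. In BALB 2 of 15 met it upward for Pol II, beside 5.91% of all regions and a median log2 difference of 0.32 over all regions. These were Pcx (pyruvate carboxylase) with 17.64 and 55.65 and Mdh1 (malate dehydrogenase) with 41.28 and 107.1. In PWK 1 of 15 met the fold rule downward for H3K27ac, beside 3.01% of all regions, Aldoc (an aldolase) with 22.44 at rest and 5.36 after IL-4. The list's median log2 difference of H3K27ac in SPRET was -0.06, beside -0.09 over all SPRET regions.

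The promoters with H3K27ac most like that of intron 1 of Fbp1 over the 8 libraries of the C57 time course were those of Cmbl (Pearson's r = 0.963), Rasal3 (0.958), Sulf2 (0.954), Hspb7 (0.938) and Inip (0.938) among 9866 promoters compared. These values describe a ranking over libraries that share depth and time and carry no test, and the region used as reference was chosen after its values were seen.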

How the data were processed

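ChIP-seq values of 155 libraries came from 9 tables, a library to a column, and peaks from 54 lists, a group to a list. The authors aligned reads with bowtie2 to each strain's genome, shifted positions to mm10 and counted tags with HOMER. The deposited signal is a count of normalized tags per region, scaled by the authors to 10000000 tags per library. Peaks were called by the authors per replicate and kept by IDR, and the deposited score and count of the peak are theirs. The labels name Bowtie2 and HOMER without versions. Of 170 value columns, 4 matched no sample and were not used.

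The members and lists were chosen with earlier results of these data known. Regions named with values were the one nearest each gene start within 1 kb, the one at -7.2 kb, and the 3 others with the highest mean H3K27ac in the C57 time course. Other regions, the stretch 4 to 15 kb upstream and the reference for likeness were chosen after values were seen. Values were tested per table with limma 3.58.1 (trend) in R 4.3.3 on log2(tags + 1), calling an adjusted p under 0.05. SPRET was not tested. A fold on this scale understates changes of low regions. Whole reads were recovered within 0.1 read for 100% of values and tested with edgeR 4.0.16 as an alternative. The tests were checked on simulated data. p-values measure the spread between the libraries of each group.

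Replicate numbers were checked for pairing by the correlation of same-numbered libraries' deviations from their group means. Over 3 numbers they were 0.118, 0.24 and 0.207 for C57 Pol II and 0.469, 0.201 and 0.282 for PWK Pol II. Same-numbered libraries thus deviated together there. Differently numbered ones were not compared, and basal replicate 4 of C57 has no treated partner, so a pairing was not settled. The main test used no pairing, and the block changed no call of a member there. For H3K27ac, with 2 libraries a group, the correlations were 0.435 to 0.492 in C57, BALB, NOD and PWK. Between the times of the C57 time course they were 0.014 to 0.452. Both numbers of such groups give the same value, which does not settle a pairing. Other pseudocounts, scaling, a filter on low values, the block and leaving out each library were the alternatives. The tables of Egr2 genotypes hold no member.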

Additional observations from a re-analysis of the deposited data

Results flagged for a closer look

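Among 6 groups of 4 to 10 libraries at member regions, 1 had a library far from the others, which chance gives in about 1 of 20 groups. It was Pol II at -41.0 kb in basal C57 BMDMs, where 1 library had 4.29 normalized tags and the others 0.8 to 1.25.

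H3K4me2 in intron 1 of Fbp1 moved in opposite directions in SPRET and C57, with every treated library above every basal one in SPRET and below in C57. Over all regions 5.2% did the same in SPRET and 61% in C57. The log2 difference of the group means plus 1 was 0.70 in SPRET, and in C57 it was -0.34 at +7.9 kb, and -0.51 at +8.2 kb, which turned to 0.33 and 0.16 in the test with median-ratio scaling. The difference between the strains was not tested.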

How the results depend on the processing

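Of the counts of members called, that of the H3K27ac time course moved. It was 0, 2 with a replicate block (the +8.2 kb intron region and the -9.8 kb region, both at 1 h) and 0 to 1 when 1 library was left out, the 1 being the +8.2 kb region without basal replicate 1. Same-numbered libraries there correlated at 0.291 between rest and 1 h. With 2 libraries a group both numbers give the same value, so whether the numbers pair the libraries was not settled. The block changed no other call. Median-ratio scaling reversed H3K4me2 in the C57 intron to 0.33 at +7.9 kb (edgeR 0.33) and 0.16 at +8.2 kb (edgeR 0.13), H3K27ac there at 6 h to 0.18, EGR2 at 1 h to 0.32 (edgeR 0.33) and EGR2 at 24 h to -0.21 (edgeR -0.21). The cause was not tested. With 1 library left out, the log2 difference in the +7.9 kb region ran from -0.76 to 1.39 for H3K27ac in C57, -0.19 to 0.38 in BALB, -1.36 to 0.17 in NOD and -0.37 to 0.40 in PWK. For Pol II it ran from -0.61 to 0.27 in C57 and -0.11 to 0.78 in NOD. At +7.9 kb in the time course it ran from -2.11 to 0.045 at 1 h, -1.09 to 1.06 at 6 h and -0.76 to 1.39 at 24 h, and for EGR2 from -0.19 to 1.06 at 24 h. None of these was called. The SPRET log2 differences with a pseudocount of 5 in place of 1 were 4.96, 3.12 and 1.86 for H3K27ac at -7.2 kb, in intron 1 of Fbp1 and in that of Fbp2, from 6.92, 3.53 and 3.55. With 1 library left out the first of these ran from 6.43 to 7.40. The planned comparisons of Egr2 genotypes gave no value because those tables hold no member. Outside SPRET, depth limits the upstream regions with few reads. Among them are those of C57 from -9.8 kb to the Fbp1 start, with at most 11 H3K27ac reads a library.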
